A study of Homo sapiens with 4 samples.

Results

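The effectors of the small GTPases RAB27A and RAB27B were examined in 2 human pancreatic cancer cell lines with and without radiation. The 9 members were the genes EXPH5, SYTL1, SYTL2, SYTL3, SYTL4, SYTL5, MLPH, MYRIP and UNC13D, found by their symbols among 58174 rows that carry an Ensembl gene identifier. All 9 were in the table, and 7 of them reached an FPKM of 1 in at least 1 library, the exceptions being SYTL3 and SYTL5. The rule names the genes and uses none of their values, but the members were chosen with earlier results of these data known.

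RAB27A and RAB27B sit on secretory vesicles, secretory lysosomes and multivesicular endosomes, and in their GTP-bound form they recruit effectors that bring the vesicle to the cell cortex and hold it at the plasma membrane. The synaptotagmin-like proteins (SYTL1 to SYTL5) bind RAB27 at the amino terminus and membrane phospholipids through C2 domains at the carboxy terminus. The Slac2 proteins lack the C2 domains, and melanophilin (MLPH) and MYRIP couple the vesicle to myosin motors on actin, while UNC13D (Munc13-4) acts later and prepares docked granules for fusion. In cultured tumor cells, SYTL4 and EXPH5 are known as effectors in the RAB27 branch of exosome release.

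SW1990 and PANC-1 are established lines from human pancreatic adenocarcinoma. Each was sequenced unirradiated and after irradiation with 10 Gy of X-rays, with 1 library for each line and treatment and 4 libraries in all, so no difference between a treated and an untreated library has a replicate check. SW1990 cells were grown in RPMI 1640 and PANC-1 cells in DMEM, so the line and its medium cannot be told apart. The time between radiation and RNA collection is not given in the sources used here. The values were read counts and FPKM (fragments scaled to transcript length in kilobases and to the number of mapped fragments). Counts summed to 17939210 in unirradiated SW1990, 18388969 in irradiated SW1990, 23451153 in unirradiated PANC-1 and 20154644 in irradiated PANC-1 cells, and a floor of 3 counts corresponded to 0.167, 0.163, 0.128 and 0.149 CPM, the count relative to its library total, in that order. In bulk RNA, fewer cells with a transcript and less transcript per cell cannot be told apart.

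The epithelial identity of the cultures was checked first. All 5 markers of ductal epithelium had an FPKM of at least 1 in each of the 4 libraries, with KRT8, a keratin of simple epithelia, the most abundant, and their FPKM summed to 2740, 3480, 1410 and 1640 in unirradiated SW1990, irradiated SW1990, unirradiated PANC-1 and irradiated PANC-1 cells. Of the ductal markers, EPCAM had an FPKM of 217 and 218 in the SW1990 libraries and of 2.28 and 2.81 in the PANC-1 libraries. Several effectors are best known from other cells: UNC13D from cytotoxic lymphocytes, MLPH from melanocytes and SYTL4 from pancreatic beta cells. The 4 leukocyte markers summed to an FPKM between 0.592 and 1.33 with CD14 the most abundant and CD3E at 0 in every library, the 3 endocrine markers including INS were at 0 in every library, and the 4 acinar markers summed to at most 0.604. The 4 melanocyte markers summed to 8.53 and 9.89 in SW1990 and to 15.4 and 13.8 in PANC-1 cells, most of it from the transcription factor MITF, while TYR and MLANA were at 0. The 4 fibroblast markers summed to 2.96 and 3.88 in SW1990 and to 8.44 and 11.1 in PANC-1 cells, with PDGFRB the most abundant in unirradiated SW1990 cells and COL1A1 in the other 3 libraries. The part of EPCAM, MITF and the fibroblast markers, which differ between the lines, in the values of the effectors was not tested.

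The level of each member was then described per length, as FPKM, in the order unirradiated SW1990, irradiated SW1990, unirradiated PANC-1 and irradiated PANC-1 cells. SYTL2, a phosphatidylserine- and phosphoinositide-binding docking factor of epithelial apical membranes, had 33.9, 47.8, 59.7 and 65.5. It lay between percentile 85.6 and percentile 93.6 of the genes that reached an FPKM of 1, library by library, and was the single member above 30 in all 4. The 2774, 3983, 3657 and 3448 counts behind these levels made it the best counted member in each library.

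The other synaptotagmin-like members were lower. SYTL1 had an FPKM of 3.41 and 7.59 in SW1990 and of 0.534 and 0.385 in PANC-1 cells, from 175, 339, 31 and 25 counts. SYTL4 (granuphilin), which docks insulin granules in beta cells, had 3.19 and 3.37 in SW1990 cells from 219 and 221 counts, and 0 counts in both PANC-1 libraries. Both genes were thus above an FPKM of 1 in the SW1990 libraries alone. SYTL3, a member with a role in lytic granule secretion of lymphocytes, stayed below an FPKM of 1 in all 4 libraries, at 0.499, 0.711, 0.182 and 0.566 from 28, 40, 16 and 41 counts. SYTL5 had 6, 11, 0 and 4 counts and an FPKM of at most 0.0994, which is at the edge of detection at this depth.

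Among the Slac2 members, EXPH5 (Slac2-b, also known for its role in keratinocytes) had an FPKM of 7.56 and 8.93 in SW1990 and of 1.86 and 0.835 in PANC-1 cells, from 1550, 1828, 538 and 213 counts. MLPH (Slac2-a), the link between RAB27A and myosin Va on melanosomes, showed the opposite order of the lines, with 4.93 and 7.82 in SW1990 and 70.4 and 66.3 in PANC-1 cells from 122, 234, 2630 and 2328 counts. MYRIP (Slac2-c), which binds myosin VIIa and myosin Va, had 6.44 and 4.56 in SW1990 cells from 520 and 373 counts and 0.0545 and 0.063 in PANC-1 cells from 8 counts in each library. In PANC-1 cells MLPH was thus the most abundant Slac2 transcript, and in SW1990 cells the FPKM of the 3 Slac2 genes lay between 4.56 and 8.93.

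UNC13D, the priming factor, had an FPKM of 33.9 and 44.1 in SW1990 and of 3.07 and 3.55 in PANC-1 cells, from 2099, 3033, 241 and 254 counts. It was level with SYTL2 in unirradiated SW1990 cells and stood at percentile 23.2 of the genes that reached an FPKM of 1 in unirradiated PANC-1 cells. The plot of FPKM by member shows the split between the lines.

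**Figure D1:**
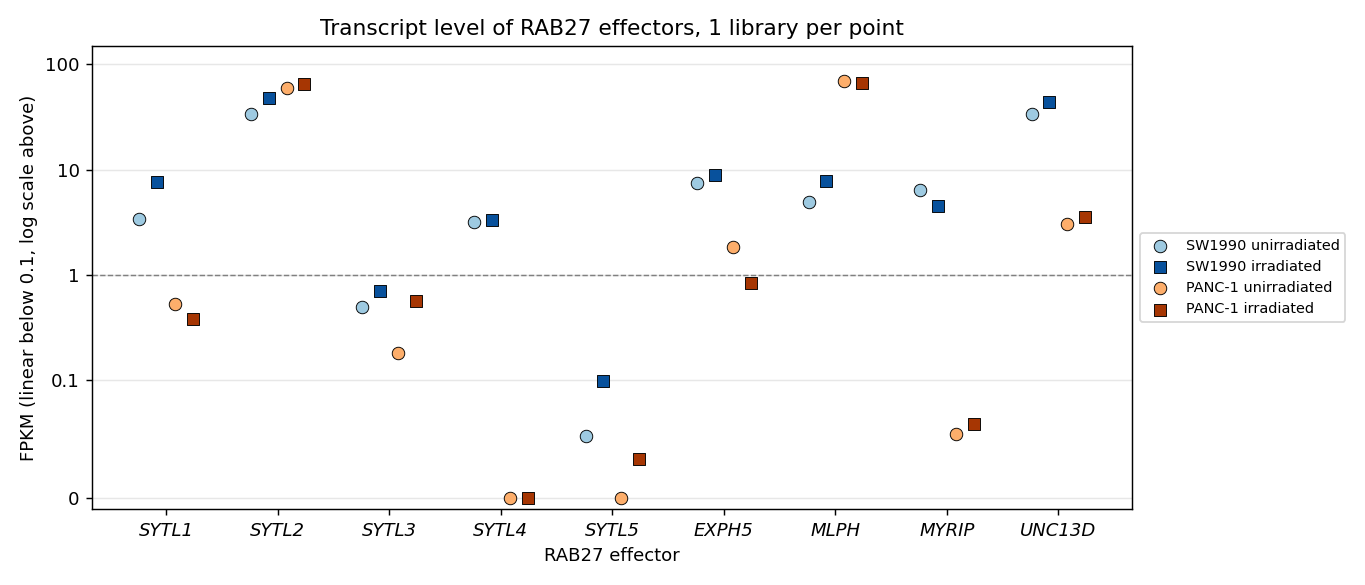
FPKM of the 9 RAB27 effectors on an axis that is logarithmic above 0.1 and linear below it, 1 point for each library, with a dashed line at an FPKM of 1 and points at 0 for SYTL4 in both PANC-1 libraries and SYTL5 in unirradiated PANC-1 cells. SYTL2 lies between 33.9 and 65.5 in all 4 libraries, MLPH is higher in both PANC-1 libraries, and EXPH5, SYTL1, SYTL4, MYRIP and UNC13D are higher in both SW1990 libraries.

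The 9 members together had a summed FPKM of 93.8, 125, 136 and 137. In SW1990 cells SYTL2 and UNC13D held most of this sum, with 36.1% each in unirradiated cells and 38.2% and 35.3% in irradiated cells. In PANC-1 cells SYTL2 and MLPH held most of it instead, with 44% and 51.8% in unirradiated cells and 47.7% and 48.3% in irradiated cells. UNC13D made up 2.26% and 2.58% of the sum in the PANC-1 libraries, and MLPH 5.26% and 6.25% in the SW1990 libraries. EXPH5, SYTL1, SYTL4 and MYRIP together filled most of the remainder in SW1990 cells, where EXPH5 held 8.05% and 7.14%, while in PANC-1 cells EXPH5 held 1.37% and 0.608%. As the plot of shares shows, the libraries of 1 line resembled each other more than the libraries of 1 treatment.

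To ask how the lines differ, SW1990 was compared with PANC-1 cells within each treatment. A gene was tested where its FPKM was at least 1 in at least 1 library of the pair, and log2 fold changes were taken from counts scaled by TMM (trimmed mean of M values), with 95% Clopper-Pearson intervals that cover counting error only. Of the 9 members, 7 were tested in each pair, and 6 of 7 were past 2-fold in the unirradiated pair, 5 higher in SW1990 and 1 higher in PANC-1 cells. Among all 16626 genes tested there, 42% were past 2-fold, 20.5% higher in SW1990 and 21.4% higher in PANC-1 cells. In the irradiated pair the count was again 6 of 7, 5 and 1, against 41.6% of 16819 genes, 20.2% and 21.4%. For some members the filter fixed the direction. SYTL1, SYTL4 and MYRIP in the unirradiated pair, and these 3 and EXPH5 in the irradiated pair, were tested through their SW1990 library alone. Of the members with an FPKM of at least 1 on both sides, 3 of 4 were past 2-fold between unirradiated cells. Between irradiated cells they were 2 of 3. The 42% and 41.6% include genes under that level on 1 side. They are thus no background for these stricter counts, and no reading is drawn from the counts.

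By TMM-scaled counts, MYRIP differed most among the members with counts in all libraries. Its log2 fold change of SW1990 over PANC-1 cells was 6.18 [5.19, 7.40] in unirradiated and 5.59 [4.60, 6.81] in irradiated cells. These values rest on 8 counts in each PANC-1 library. By FPKM with 1 added, the order was another. Between unirradiated cells MYRIP was then at 2.82, UNC13D at 3.10 and MLPH at -3.59. SYTL4 was at least 81.4-fold higher in unirradiated and at least 76.2-fold higher in irradiated SW1990 cells, with the PANC-1 libraries set to the floor of 3 counts. The transcripts of MYRIP and SYTL4 were close to or at the limit of detection in PANC-1 cells and readily counted in SW1990 cells.

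UNC13D was higher in SW1990 cells by 3.28 [3.09, 3.48] on the log2 scale without radiation and by 3.63 [3.44, 3.82] after it. SYTL1 was higher by 2.65 [2.10, 3.26] and 3.81 [3.22, 4.46], and EXPH5 by 1.68 [1.54, 1.83] and 3.15 [2.94, 3.36]. For EXPH5 the gap was thus 3.21-fold between unirradiated and 8.87-fold between irradiated cells. MLPH was the member higher in PANC-1 cells, at -4.27 [-4.55, -4.01] and -3.27 [-3.47, -3.07], which is 19.3-fold and 9.62-fold.

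SYTL2 differed little by counts, and its direction depended on the pair and on the unit. Its log2 fold change of counts was -0.24 [-0.31, -0.17] between unirradiated and 0.26 [0.19, 0.32] between irradiated cells, while its log2 ratio of FPKM was -0.82 and -0.46. SYTL3 and SYTL5 were under an FPKM of 1 in every library and were not tested.

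Next, 1 model for the 4 libraries was fitted (edgeR's quasi-likelihood test), with line and treatment as terms and 1 residual degree of freedom, so that the spread between libraries entered the test. The model called 7921 of 18180 genes for the line after Benjamini-Hochberg adjustment, which is 43.6%, with 21.4% higher in SW1990 and 22.2% higher in PANC-1 cells. Of the members, 8 were kept by the filter on low counts, SYTL5 was not, and 6 of 8 were called for the line. Of these, SYTL4 and MYRIP, with at most 8 counts in a PANC-1 library, were kept through the SW1990 libraries in which they are high. In this edgeR fit the log2 fold change was 3.46 for UNC13D (SE 0.18, adjusted p = 0.000911), 5.88 for MYRIP (SE 0.35, adjusted p = 0.00103) and -3.75 for MLPH (SE 0.30, adjusted p = 0.00181). It was 3.23 for SYTL1 (SE 0.42, adjusted p = 0.00558) and 2.41 for EXPH5 (SE 0.39, adjusted p = 0.0102) by the same edgeR test. SYTL4 was called at an adjusted p of 0.00282 in edgeR, and no fitted fold change is given because both PANC-1 libraries were at 0. The 2 members not called were SYTL2, at 0.01 (SE 0.17, edgeR adjusted p = 0.961), and SYTL3, at 0.45 (SE 0.50, edgeR adjusted p = 0.505). The fit treats the 2 libraries of a line as repeats after a common radiation term, and nothing shows that they were independent cultures.

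SYTL1, SYTL4 and MYRIP were above an FPKM of 1 in both SW1990 libraries and under it in both PANC-1 libraries, and the sequences around their transcription starts are shown because these are the members that crossed this limit between the lines. RefSeq lists 1 window for SYTL1, 2 for SYTL4 and 3 for MYRIP, and the one nearest to the start of the annotated gene was taken, so the counts of motifs below cover that one alone. Each window on GRCh38.p14 spans 250 bases before to 50 bases after the start, read on the strand of the gene, with the CG dinucleotides in capitals. The window of SYTL1 is chr1:27341772-27342071 on the plus strand, that of SYTL4 is chrX:100732072-100732371 on the minus strand and that of MYRIP is chr3:39808664-39808963 on the plus strand.
SYTL1: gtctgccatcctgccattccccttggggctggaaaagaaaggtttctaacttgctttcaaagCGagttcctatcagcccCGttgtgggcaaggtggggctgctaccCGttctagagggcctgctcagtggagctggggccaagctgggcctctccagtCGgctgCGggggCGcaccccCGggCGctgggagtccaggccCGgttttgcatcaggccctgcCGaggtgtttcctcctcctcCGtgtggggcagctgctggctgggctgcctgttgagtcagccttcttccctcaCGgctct
SYTL4: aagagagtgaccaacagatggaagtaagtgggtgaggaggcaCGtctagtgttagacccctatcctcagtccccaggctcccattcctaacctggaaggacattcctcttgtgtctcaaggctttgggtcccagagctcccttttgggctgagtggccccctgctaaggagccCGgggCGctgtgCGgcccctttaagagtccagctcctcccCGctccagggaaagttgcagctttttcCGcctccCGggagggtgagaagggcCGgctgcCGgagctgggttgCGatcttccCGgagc
MYRIP: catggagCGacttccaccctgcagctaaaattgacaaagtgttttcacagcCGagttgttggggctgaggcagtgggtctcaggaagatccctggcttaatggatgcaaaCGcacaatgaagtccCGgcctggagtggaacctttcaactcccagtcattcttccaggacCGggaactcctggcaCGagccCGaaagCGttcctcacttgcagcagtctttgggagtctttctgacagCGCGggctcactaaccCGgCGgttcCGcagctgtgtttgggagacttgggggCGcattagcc
The windows hold 12, 11 and 14 CG dinucleotides at a GC content of 63.7%, 60.7% and 56.3%, beside a median of 14 and 58.7% over 35116 RefSeq windows of the same length. By the number of CG dinucleotides they are close to the middle of all promoters, with 46.9%, 45.3% and 49.7% of windows holding fewer CG dinucleotides. Motifs for 4 common promoter elements were searched on both strands. The AP-1 site was spelled TGANTCA and occurs in 7.71% of all windows, and SYTL1 held 1 match to it. The GC box was spelled GGGCGG and occurs in 45%, the E-box was spelled CACGTG and occurs in 7.26%, and the TATA box was spelled TATAAA and occurs in 11.5% of all windows. SYTL1 held none of these last 3, and SYTL4 and MYRIP held none of the 4. A match or its absence says nothing on binding. DNA methylation was not measured in these libraries.

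All 9 members have the same coordinates in the deposited table and in GENCODE 29 on GRCh38 and are annotated as protein coding. EXPH5 (ENSG00000110723) lies at chr11:108505431-108593738 and SYTL2 (ENSG00000137501) at chr11:85694224-85811159, both on the minus strand. UNC13D (ENSG00000092929) lies at chr17:75827225-75844717 on the minus strand, and MLPH (ENSG00000115648) at chr2:237485428-237555318 on the plus strand. MYRIP (ENSG00000170011) lies at chr3:39808914-40260321 and SYTL1 (ENSG00000142765) at chr1:27342020-27353937, both on the plus strand. SYTL4 (ENSG00000102362) lies at chrX:100674491-100732123 on the minus strand, and its exons overlap those of SRPX2 on the other strand. SRPX2 had 0 and 10 counts in SW1990 and 355 and 369 counts in PANC-1 cells, the reverse of SYTL4. MYRIP overlaps the antisense gene EIF1B-AS1, which had 14, 9, 15 and 5 counts. Whether the counting used strand is not given in the sources used here, so reads of such pairs may have been split between them.

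SYTL2 was the tested member whose direction between the lines turned with the unit, in the irradiated pair. The ratio of counts to FPKM was therefore examined. Counts divided by FPKM and scaled to the library total give a value in kilobases that stands for the transcript length used for FPKM. For SYTL2 it was 4.56 and 4.53 in SW1990 and 2.61 in both PANC-1 libraries. The value was thus the same within a line and 0.80 higher on the log2 scale in SW1990 cells, in unirradiated and in irradiated cells alike. Of 10760 genes with at least 50 counts and an FPKM of at least 1 in every library, 1.29% lay as far from the median in the unirradiated and 1.64% in the irradiated pair. MLPH, at 1.38, 1.63, 1.59 and 1.74, and UNC13D, at 3.45, 3.74, 3.35 and 3.55, were the other 2 members that passed these limits, and for both the values of the lines overlapped.

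The annotation lists 30 transcripts of SYTL2, 20 of them protein coding, between 583 and 6672 bases long with a median of 2184. The table further holds a locus without a gene name inside SYTL2 on the same strand, at chr11:85715611-85718420, which overlaps exons of 17 of the 30 transcripts. It had 231 and 344 counts in SW1990 and 628 and 708 counts in PANC-1 cells. With its counts added to SYTL2, the log2 fold change of SW1990 over PANC-1 cells moved from -0.24 to -0.35 in the unirradiated pair, an alternative chosen after seeing the data. Which SYTL2 transcripts each line makes was not tested.

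The response to radiation was asked next, in each line by the irradiated over the unirradiated library. In SW1990 cells, 7 members were tested and 0 of 7 were past 2-fold, against 9.53% of 15731 genes. Of the 7 values, 6 were above and 1 was below 0, SYTL4 being above at 0.03 and below at -0.02 with library totals. Their median log2 fold change was 0.54, beside a median of 0.02 and quartiles of -0.21 and 0.27 over all genes tested. The lists of related genes were read beside the members. Of the related exocytic genes, 8 of 8 were above 0 in SW1990 cells. So were 12 of 14 motor and SNARE partners and 9 of 11 GTPases and regulators. In PANC-1 cells these counts were 3 of 6, 3 of 13 and 6 of 11. The SW1990 list medians were 0.53, 0.15 and 0.11 in that order, and the last 2 lie within the quartiles of all genes. In PANC-1 cells the list medians were 0.09, -0.13 and 0.07, within the quartiles of all genes there, -0.28 and 0.26. The share of all genes above 0 was not taken, so no reading is drawn from the counts above 0, of members or of lists. The difference between the lines was not tested. The counts of the 9 members together went from 7493 to 10062, a log2 fold change of 0.45 [0.40, 0.49]. Most of this rise came from SYTL2, from 2774 to 3983 counts, and UNC13D, from 2099 to 3033, while MYRIP went from 520 to 373. The interval covers counting error only.

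Within SW1990 cells the largest values were those of SYTL1 and MLPH. SYTL1 went from 175 to 339 counts, a log2 fold change of 0.97 [0.71, 1.25] or 1.97-fold, and from an FPKM of 3.41 to 7.59, a log2 ratio of 1.16. MLPH went from 122 to 234 counts, which is 0.96 [0.64, 1.29] or 1.95-fold, while its log2 ratio of FPKM was 0.66. The intervals of both genes include 1, so by counts neither could be placed above or below 2-fold at this depth, and SYTL1 was past the limit by FPKM.

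The 2 most abundant members of SW1990 cells were both higher. UNC13D went from 2099 to 3033 counts, a log2 fold change of 0.55 [0.47, 0.63], and SYTL2 from 2774 to 3983 counts, 0.54 [0.47, 0.61]. By FPKM the log2 ratio was 0.38 for UNC13D, outside its counting interval, and 0.50 for SYTL2. EXPH5 was at 0.26 [0.16, 0.36], and SYTL4 at 0.03 [-0.24, 0.31]. MYRIP was the 1 member on the other side, from 520 to 373 counts or -0.46 [-0.65, -0.26]. SYTL3 and SYTL5, under an FPKM of 1 and so not tested, were at 0.54 [-0.20, 1.29] and 0.90 [-0.67, 2.61].

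In PANC-1 cells 4 members were tested, 1 of 4 was past 2-fold, and this was EXPH5, which was lower. Of 15159 genes tested, 9.12% were past 2-fold and 4.18% were past 2-fold and lower. EXPH5 went from 538 to 213 counts, a log2 fold change of -1.21 [-1.44, -0.97] or 2.31-fold lower, and its FPKM from 1.86 to 0.835, a log2 ratio of -1.16. The interval includes -1, so EXPH5 could not be placed beyond 2-fold at this depth, and it was tested through its unirradiated library alone. By FPKM with 1 added, its value was -0.64 and the call was lost.

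The abundant members of PANC-1 cells lay near 0. SYTL2 was at 0.05 [-0.02, 0.11], and MLPH at -0.05 [-0.13, 0.04] or, with library totals, at 0.04. UNC13D was at 0.21 [-0.05, 0.47] on 241 and 254 counts. All 3 intervals include 0. The median of the 4 tested members was 0.00, with 2 higher and 2 lower, beside -0.02 and quartiles of -0.28 and 0.26 for all genes tested. The counts of the 9 members together went from 7121 to 6321, a log2 fold change of -0.04 [-0.09, 0.01]. The other 5 members were under an FPKM of 1 in both PANC-1 libraries and were not tested. Of these, SYTL3 went from 16 to 41 counts, 1.49 [0.62, 2.42], and SYTL1 was at -0.18 on 31 and 25 counts and MYRIP at 0.13 [-1.48, 1.74].

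In the fit of all 4 libraries, edgeR's quasi-likelihood test called 0 of 18180 genes for radiation, which is 0%, and DESeq2 called 39 genes. At an unadjusted edgeR p under 0.05 were 833 genes or 4.58%, a share below the 0.05 that this limit passes where no gene responds. No member was called by either tool, and 0 of 8 had an unadjusted p under 0.05. UNC13D came nearest, with a log2 fold change common to both lines of 0.39 (SE 0.16, edgeR adjusted p = 0.936). EXPH5 was at -0.44 (SE 0.38, edgeR adjusted p = 0.943). This model has 1 radiation term for both lines.

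The difference of the 2 responses was therefore given for each member, as the log2 fold change in SW1990 minus that in PANC-1 cells. It was 1.47 for EXPH5 (counting SE 0.13), 1.01 for MLPH (0.17), 0.50 for SYTL2 (0.05) and 0.35 for UNC13D (0.14). Of these 4 members tested in both lines, 2 differed by more than 1, against 12% of 13228 genes, and the median size of the difference over all genes was 0.31. EXPH5 stood at 0.26 in SW1990 and -1.21 in PANC-1 cells, on opposite sides of 0 with intervals that do not meet. In PANC-1 cells EXPH5 was tested through its unirradiated library alone, in which it is higher. The call of MLPH was lost with library totals, where its log2 fold changes were 0.90 in SW1990 and 0.04 in PANC-1 cells, and by FPKM with 0.01 added, where they were 0.66 and -0.09. The call of EXPH5 was lost by FPKM with 1 added, where its values were 0.21 in SW1990 and -0.64 in PANC-1 cells. Opposite signs were common, at 45.5% of all genes tested in both lines. With 1 library for each line and treatment, no test of the difference could be made.

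The GTPases that the effectors bind were read beside them. RAB27A had an FPKM of 2.55 and 2.81 in SW1990 and of 3.43 and 3.7 in PANC-1 cells, and the line was not called (log2 fold change -0.60, SE 0.25, edgeR adjusted p = 0.115). RAB27B had 3.03 and 2.76 in SW1990 and 13.4 and 7.7 in PANC-1 cells and was higher in PANC-1 cells (-2.19, SE 0.22, edgeR adjusted p = 0.00319). RAB27B was thus the more abundant of the pair in PANC-1 cells, and the 2 were close in SW1990 cells. With radiation, RAB27A was at -0.12 [-0.45, 0.21] in SW1990 and -0.13 [-0.39, 0.13] in PANC-1 cells, and both intervals include 0. RAB27B was at 0.17 [-0.06, 0.39] in SW1990 and -0.51 [-0.61, -0.41] in PANC-1 cells. By FPKM the log2 ratio in SW1990 and PANC-1 cells was 0.14 and 0.11 for RAB27A, and -0.14 and -0.80 for RAB27B. The direction thus turned with the unit for RAB27A in both lines and for RAB27B in SW1990 cells. RAB27A shares exon sequence with PIGBOS1 and PIGB in the annotation, so its counts are uncertain to that extent.

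Among the 11 genes of the GTPases and their regulators, edgeR's fit called 3 higher in SW1990 and 3 higher in PANC-1 cells, with 43.6% of all genes called for the line. Among the 15 motor and membrane-fusion (SNARE) partners, 5 were called higher in SW1990 and 4 higher in PANC-1 cells, beside 21.4% and 22.2% of all genes in these directions. No reading is drawn from either count. The myosin that MLPH and MYRIP bind, MYO5A, had an FPKM of 12.1 and 8.36 in SW1990 and of 20.1 and 12.2 in PANC-1 cells (-0.95, SE 0.15, edgeR adjusted p = 0.0102). Its relatives MYO5B and MYO5C, named after their values were seen, went the other way, with an FPKM of 23.8 and 25.6 for MYO5B and 30.7 and 30.9 for MYO5C in SW1990 cells, and of 2.52 and 0.287 and of 0.783 and 0.672 in PANC-1 cells. MYO7A, the partner of MYRIP, stayed under an FPKM of 1 in all 4 libraries.

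STXBP2, which acts with UNC13D and the SNARE protein STX11 in lymphocyte granule release, had an FPKM of 51.4 and 48.4 in SW1990 and of 20.6 and 30.4 in PANC-1 cells (1.0, SE 0.17, edgeR adjusted p = 0.0109). STX11 was low, at 0.954, 1.02, 1.68 and 1.04, and was not called (-0.59, SE 0.42, edgeR adjusted p = 0.313). With radiation, 0 genes of either list were past 2-fold by counts in either line, and the list medians were 0.11 and 0.15 in SW1990 and 0.07 and -0.13 in PANC-1 cells. By FPKM, 2 partners named after their values were seen were past it in PANC-1 cells. MYO5B was at -3.13 by FPKM and -0.74 by counts, with 126 and 69 counts, and SNAP23 at -1.01 by FPKM and -0.99 by counts.

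The pattern of each member over the 4 libraries was last compared with that of 39 candidate genes of these lists and the members themselves, by the root mean square difference of centred log2(FPKM + 0.1). SYTL4 was closest to MYO5C at 0.10, a distance that depends on the 0.1 added because SYTL4 is at 0 in PANC-1 cells, SYTL2 to VAMP8, an endosomal SNARE, at 0.13, and SYTL1 to the secretory GTPase RAB3A at 0.16. This last distance depends on the 0.1 added as well, since RAB3A had an FPKM of 0.181 and 0.105 in PANC-1 cells. The match of SYTL2 rests on FPKM, since by counts SW1990 over PANC-1 was -1.11 and -0.71 for VAMP8 against -0.24 and 0.26 for SYTL2. The nearest genes of the other 4 members lay between 0.16 for UNC13D and 0.91 for MLPH. With 4 libraries these distances mostly describe the difference between the lines.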

How the data were processed

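RNA of 4 libraries was sequenced, and 1 table of 59263 rows was deposited by the authors, holding per library both counts and FPKM values. Per the submitters' notes, reads were trimmed with Trimmomatic 0.36, aligned to GRCh38 with HISAT2 2.0 and assembled with StringTie 1.3.3b. The deposited counts are not normalized, and how they were made is not given in the sources used here. The deposited FPKM values are scaled to transcript length and library size. The protocol names an mRNA kit, while a label names removal of ribosomal RNA.

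Rows that name no gene, 1089 with between 0.45% and 0.64% of the counts, stayed out of library sizes and tests, and 27 gene names turned into dates were restored from their identifiers. Of the rows with an Ensembl identifier, 57836 were found in GENCODE 29, 96.8% of them with the same coordinates. Log2 fold changes used TMM-scaled counts (edgeR 4.0.16, R 4.3.3) of genes whose FPKM reached 1 in either library of a pair, with past 2-fold as the call and a count of 0 set to 0.01. The fit of 4 libraries used edgeR's quasi-likelihood test with filterByExpr and Benjamini-Hochberg adjustment at 0.05. The common coefficient of variation was 0.218. DESeq2 1.42.0, other scalings, filters, fold limits and FPKM were alternatives, and the fit of 4 libraries was tested on simulated data. In the alternative with a test of reads, edgeR's binomial test took the place of the planned exact test.

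The members and lists were chosen with earlier results of these data known. The genes named by rule were all members, RAB27A, RAB27B, MYO5A, MYO7A, STX11 and STXBP2. The rule added any listed gene past 2-fold with radiation and up to 3 genes most alike in pattern. MYO5B, MYO5C, SNAP23 and genes of regulated secretion, among them BAIAP3, were named after their values were seen. The study's exosomal small RNA data were not analysed here. RefSeq promoter windows were matched by symbol for 7 of the 9 members.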

Additional observations from a re-analysis of the deposited data

Results flagged for a closer look

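The difference of the radiation response of EXPH5 between the lines, the log2 fold change in SW1990 minus that in PANC-1 cells, was 1.47. It is given here because the libraries of the 2 lines moved in opposite directions, from 1550 to 1828 counts in SW1990 and from 538 to 213 counts in PANC-1 cells. Opposite signs were common, at 45.5% of 13228 genes tested in both lines. The SW1990 value of 0.26 lies within the quartiles of all genes there, -0.21 and 0.27. By FPKM with 1 added, the values were 0.21 in SW1990 and -0.64 in PANC-1 cells. The difference was not tested, since each line and treatment has 1 library.

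The locus without a gene name that lies inside SYTL2 had 628 counts in unirradiated PANC-1 cells, above the floor of 3 counts, in rows left out of library sizes and tests and used here only in an added alternative for SYTL2. Its 708 counts in irradiated PANC-1 cells and its 231 and 344 counts in SW1990 cells were above the floor as well. Whether these reads belong to SYTL2 transcripts was not tested.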

How the results depend on the processing

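The count of 6 of 7 members past 2-fold between the lines was 6 under each alternative but 1, and 7 without a filter on low values. The member added there was SYTL5, with 6 counts in unirradiated SW1990 and 0 in unirradiated PANC-1 cells, the 0 being set to 0.01. The 6 members called for the line in the fit of 4 libraries numbered 6 with other scaling, with DESeq2, without a filter and at an unadjusted p. In SW1990 cells the 0 members past 2-fold became 2 at a fold limit of 1.5 and 1 by FPKM with 0.01 added. In PANC-1 cells the 1 member became 3 with no filter on low values, 2 with a minimum of 10 counts in a library, and 0 by FPKM with 1 added. Both looser filters added SYTL3, at 16 and 41 counts, and the lack of a filter also added SYTL5, at 0 and 4 counts. The share of all genes was not taken under these alternatives. The 0 genes called for radiation by edgeR's fit became 39 with DESeq2 and 833 at an unadjusted p. The 2 members whose response differed by more than 1 between the lines became 1 with library totals, 1 by FPKM with 0.01 added and 0 by FPKM with 1 added. The cause was not tested.

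Of 102 alternative values for single members, 76 moved by less than the counting interval, 26 moved by more, and 3 had another sign, those of MLPH and SYTL4 given in the report and that of SYTL2 between the irradiated lines, at 0.26. Library totals in place of TMM moved the median of all genes between the unirradiated lines from -0.02 to 0.20. The fit of 4 libraries, with line as a term, already sets radiation within each line, and the labels carry no replicate numbers for any other block. Counts were 41 or fewer for SYTL3 and SYTL5 in all libraries and for SYTL1, SYTL4 and MYRIP in PANC-1 cells. Values that rest on them are imprecise, and whether depth limited them was not tested.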

Other observations

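Related genes of regulated secretion were read in the same way. Of 15 such genes, 10 were kept in edgeR's fit of 4 libraries, 3 were called higher in SW1990 and 1 was called higher in PANC-1 cells, and 0 were called for radiation. Of all genes, 43.6% were called for the line, so the count is near that background. These genes were named after their values were seen. SYT7, a calcium sensor of lysosome exocytosis, had an FPKM of 9.45 and 9.67 in SW1990 and of 0.578 and 0.833 in PANC-1 cells (log2 fold change 3.79, SE 0.22, edgeR adjusted p = 0.00103). RPH3AL, which also binds RAB27, had 16.8 and 16.4 in SW1990 and 3.58 and 3.42 in PANC-1 cells (2.04, SE 0.22, edgeR adjusted p = 0.00345). RAB3A was at 1.78 and 3.01 in SW1990 and at 0.181 and 0.105 in PANC-1 cells (3.65, SE 0.60, edgeR adjusted p = 0.0106). With 8 and 4 counts in the PANC-1 libraries, RAB3A was kept through the SW1990 libraries in which it is high. It is counted among the calls higher in SW1990 cells. UNC13B, a relative of UNC13D, went the other way, with 12.5 in both SW1990 libraries and 15.8 and 16.7 in PANC-1 cells (-0.54, SE 0.13, edgeR adjusted p = 0.0322). With radiation, the genes of this list that could be tested numbered 8 for SW1990 and 6 for PANC-1, 0 were past 2-fold by counts in either line (BAIAP3 was at 0.77 by counts and 1.08 by FPKM in SW1990 cells), and the list medians were 0.53 and 0.09.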
